A study of Mus musculus with 32 samples.

Results

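Cultured mouse cardiac fibroblasts that had received LacZ, the control for the recombinase iCre, were compared between a group given interleukin-1 beta (IL-1b, 15 ng/ml) for 24 h and a group titled SS. The comparison takes 8 of the 32 poly(A) RNA libraries of the series, 4 titled as LacZ with IL-1b and 4 titled as LacZ with SS, an abbreviation that the labels leave unexplained and for which they give no dose or time. Members were taken by sample title. Calls and list counts come from a fit without pairing unless a paired fit is named, and libraries with the same number in the title, 1 to 4, are called pairs where values are set side by side. Other groups enter only where a difference is tested. These were LacZ cells given transforming growth factor beta (TGFb, 10 ng/ml), LacZ cells given basic fibroblast growth factor (bFGF, 20 ng/ml), and iCre cells with IL-1b or SS, each with 4 libraries.

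All groups share the genotype given as C57BL/6J_Pkm2fl/fl, in which a floxed part of Pkm, the gene of the glycolytic enzyme pyruvate kinase, can be removed by Cre. The LacZ cells carry that allele too. Cells were used at passage 1 after growth in medium with 10% serum and 20 ng/ml bFGF. Doses and time come from a protocol text that names TAK1fl/fl mice and also lists tumour necrosis factor as a treatment. For the LacZ libraries, tag and title disagree on the treatment: the tag of those titled for IL-1b reads LacZ control, and the tag of those titled for SS reads LacZ with bFGF. What a number stands for, such as a mouse, an isolation or a day, is unstated in the labels, so the p-values measure the spread between these samples, whose origin is unstated.

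Interleukin-1 is an early alarm signal of injured heart tissue. It binds the receptor IL1R1, which pairs with an accessory chain, recruits the adaptor MYD88 and kinases of the IRAK family, and through TAK1 frees the transcription factor NF-kB from its inhibitor. NF-kB dimers then switch on cytokines, chemokines and adhesion molecules, along with the inhibitors that end the signal. In cardiac fibroblasts, IL-1 is known for inflammatory and matrix-degrading programmes and for opposing the contractile myofibroblast state that TGFb induces.

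The titles were checked against the data first. Total counts ran from 22844993 to 29133901 in the IL-1b libraries (mean 26053644) and from 20736203 to 25205514 in the SS libraries (mean 23219664). The LacZ group titled IL-1b had its highest correlation with the iCre group titled IL-1b (0.938 over genes, as deviations from the mean of the 4 conditions), and the LacZ group titled SS with the iCre group titled SS (0.903), while the other iCre groups gave values of 0.182 or below. The fibroblast genes Col1a1, Col3a1 and Pdgfra averaged 11500.3 ± 3136, 25367 ± 8058 and 1089 ± 347 CPM in IL-1b libraries and 9935 ± 1801, 23022 ± 6109 and 619 ± 140.5 CPM in SS libraries (SD, n = 4 each). The adjusted p of Pdgfra was 0.242 by edgeR, and 0.00265 with the replicate number in the fit. CPM here is the normalised count on library sizes scaled by edgeR's TMM factors.

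Markers of other cells were detected. The summed CPM of 18 macrophage and leukocyte markers was 119 to 761 in IL-1b libraries and 81.7 to 622 in SS libraries, with number 3 highest and number 4 lowest in both groups, and the T cell marker Cd3e was at 0 in all 8 libraries. The 12 endothelial markers summed to 307 to 638 CPM in IL-1b libraries and 259 to 625 CPM in SS libraries, with Cldn5 at 0 throughout. The 10 mural markers, some of which fibroblasts also express, summed to 466 to 740.0 CPM in IL-1b libraries and 809 to 1345 CPM in SS libraries. The 10 mesothelial and epicardial markers summed to 4.82 to 8.02 CPM in IL-1b libraries and 12.3 to 18.9 CPM in SS libraries, with 3 of 9 tested called lower, and the 7 Schwann cell markers to 6.88 to 11.7 and 9.44 to 20.1 CPM, with 0 of 3 tested called and Gfra3 at 0 throughout. The part of these cells in the results was not tested. Libraries of number 4 stood farthest from the rest of their group, with a chi-square per degree of freedom of 59.7 to 131 against the other IL-1b libraries and 80.8 to 149 against the other SS libraries. These are bulk libraries, in which fewer cells of a type and less RNA per cell cannot be told apart.

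Genes higher with IL-1b included 8 of 11 tested CXC chemokines, 17 of 19 acute-phase and antimicrobial genes, 39 of 46 interferon-stimulated genes and 18 of 32 glycolysis genes, and genes lower with IL-1b included 9 of 24 contractile genes. The acute-phase count was 13 with a stricter filter, at least 1 CPM in 4 libraries. Of 16760 genes tested by edgeR's quasi-likelihood test, 1853 were higher (11.1%) and 1363 lower (8.13%) with IL-1b at a Benjamini-Hochberg adjusted p under 0.05, 3216 in all (19.2%). Of these, 722 higher and 603 lower genes moved by more than 2-fold, and 168 higher and 58 lower genes by more than 8-fold, so changes of that size were more often rises. With counts scaled by library totals alone the split was 1375 higher and 1625 lower. With the replicate number as a term in the fit, called the paired fit from here on, 2810 genes were higher (16.8%) and 2608 lower (15.6%), 32.3% in all, and the 3216 genes were all among them with the same direction. Without number 4 in any group, 2678 genes were higher (16.2%) and 2196 lower (13.3%), 29.5% of the 16506 tested. The number of lower genes dropped to 907 without the SS library of number 2.

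**Figure D1:**
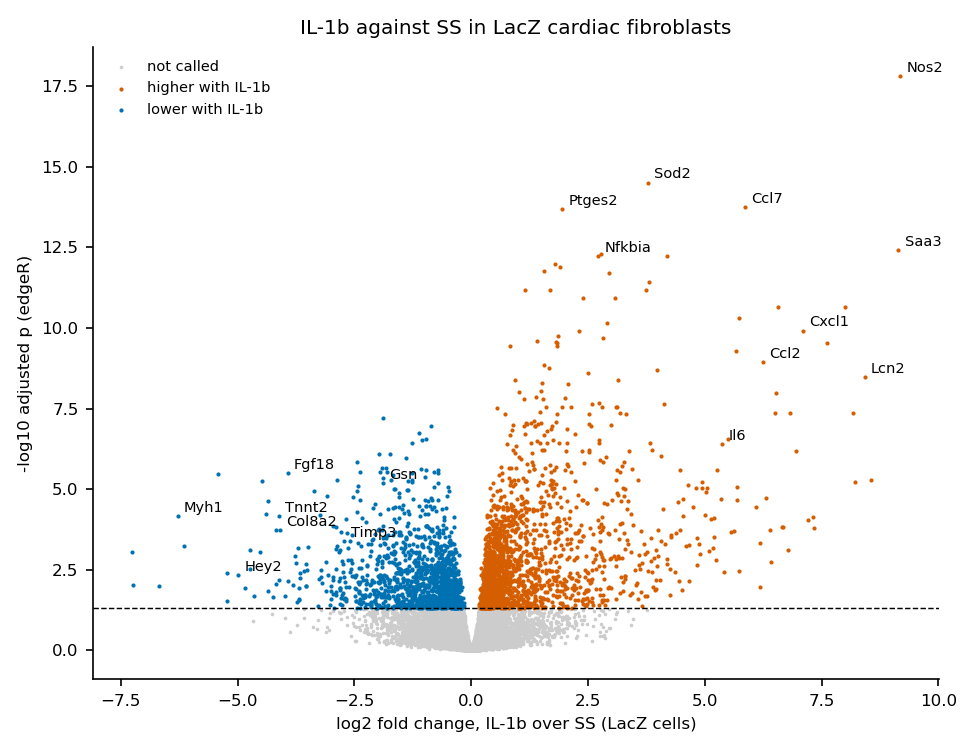
Each point is 1 of 16760 genes, with the log2 fold change of IL-1b over SS in LacZ cells on the x axis and -log10 of the edgeR adjusted p on the y axis, and the dashed line marks an adjusted p of 0.05. Called genes are coloured, and past 8-fold there are 168 called genes on the right and 58 on the left.

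The inducible nitric oxide synthase gene led the induced genes. Nos2 (chromosome 11, 78920787 to 78960254, GRCm38) had 274, 174, 296 and 283 CPM in IL-1b libraries 1 to 4, against 0.217, 0.421, 0.700 and 0.395 CPM in SS libraries 1 to 4. The log2 fold change was 9.19 ± 0.29 (SE), a 585-fold difference (edgeR adjusted p = 1.51e-18). Nos2 was below 1 CPM in every SS library and far higher in every IL-1b library. All per-library values below are given in the same order, numbers 1 to 4, and each fold change is IL-1b over SS with its SE.

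Enzymes that feed nitric oxide synthesis were higher too. Gch1, which makes the first step toward the cofactor tetrahydrobiopterin, had 19.8, 18.1, 17.7 and 17.3 CPM with IL-1b and 0.695, 0.936, 1.11 and 2.37 CPM in SS (log2 fold change 3.82 ± 0.43, edgeR adjusted p = 3.78e-07). Slc7a2, a carrier of the substrate arginine, had 819, 870.2, 883 and 849 CPM with IL-1b and 165, 183, 103 and 156 CPM in SS (log2 fold change 2.49 ± 0.21, edgeR adjusted p = 2.55e-09). In both genes the 2 groups stood clear of each other in all libraries. Of the 22 tested genes of nitric oxide and prostaglandin synthesis, 7 were higher and 0 lower (12 and 1 in the paired fit), with a median log2 fold change of 0.44 against -0.02 over all tested genes. The 7 are 31.8% of the list, against 19.2% of all tested genes. On the prostaglandin side the synthase Ptges2 averaged 56.0 ± 5.93 CPM with IL-1b and 14.6 ± 0.824 CPM in SS (edgeR adjusted p = 2.08e-14).

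Cyclooxygenase 2 behaved less evenly. Ptgs2 had 33.6, 32.7, 49.5 and 84.3 CPM with IL-1b and 3.56, 4.02, 9.15 and 34.8 CPM in SS, and the SS library of number 4 overlapped the IL-1b range. Its log2 fold change was 1.95 ± 0.65 (edgeR adjusted p = 0.0337). Without IL-1b library 3 or 4, or SS library 1, 2 or 3, its adjusted p was 0.0602 to 0.121. In the paired fit it was 0.000166.

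Chemokines of the CXC class were higher with IL-1b. Of 11 tested CXC chemokines, 8 were higher and 0 lower, with a median log2 fold change of 3.86. The neutrophil attractant Cxcl5 (chromosome 5, 90759360 to 90761624) had 2691, 2508, 1781 and 2394 CPM with IL-1b and 33.1, 34.1, 9.35 and 21.5 CPM in SS, a 95.6-fold difference (log2 6.58 ± 0.44, edgeR adjusted p = 2.18e-11). Ranked by count per length, Cxcl5 moved to place 17 of the 16760 genes by its mean in IL-1b libraries, against place 3331 in SS libraries. Its neighbour Cxcl1 (chromosome 5, 90891241 to 90893115) had 1288, 1201, 1266 and 565 CPM with IL-1b and 12, 8.89, 6.92 and 3.59 CPM in SS (log2 fold change 7.11 ± 0.52, edgeR adjusted p = 1.21e-10). Number 4 held the lowest Cxcl1 value of each group.

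The related Cxcl2 and Cxcl3 had far fewer reads. Cxcl2 averaged 6.17 ± 1.84 CPM with IL-1b and 0.147 ± 0.152 CPM in SS (log2 fold change 5.36 ± 0.79), and Cxcl3 had 258 reads over the 4 IL-1b libraries and 1 read over the 4 SS libraries, a depth-corrected ratio of 229.9 (95% interval 40.9 to 9117). That interval covers counting error only. The membrane-bound chemokine and scavenger receptor Cxcl16 averaged 389 ± 76.3 CPM with IL-1b and 43.9 ± 7.31 CPM in SS (log2 fold change 3.15 ± 0.28, edgeR adjusted p = 4.19e-09). The T cell attractant Cxcl10 had 18.5, 19.9, 8.55 and 20.5 CPM with IL-1b and 0.478, 0.655, 1.61 and 1.87 CPM in SS (log2 fold change 3.86 ± 0.72, edgeR adjusted p = 0.00033), with number 3 lowest under IL-1b. Cxcl12, which retains stem and immune cells, had 1557, 2220.1, 573 and 2423 CPM with IL-1b and 259.7, 519, 213 and 1295 CPM in SS. Its IL-1b value was the higher in each of the 4 pairs, but the groups overlapped, and the adjusted p was 0.29 in the unpaired fit and 0.000507 in the paired fit.

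Monocyte attractants led the CC chemokines. Of 17 tested CC and CX3C chemokines, 6 were higher and 0 lower (14 and 0 in the paired fit), with a median log2 fold change of 2.05. The 6 are 35.3% of the list, against 19.2% of all tested genes. Ccl2 (chromosome 11, 82035571 to 82037453) had 1916, 1689, 1764 and 1146 CPM with IL-1b and 14.8, 13.8, 41.5 and 15.7 CPM in SS, a 75.9-fold difference (log2 6.25 ± 0.51, edgeR adjusted p = 1.16e-09). Ccl7, from the same cluster on chromosome 11, had 862, 803, 730.0 and 625 CPM with IL-1b and 10.8, 8.75, 19.2 and 13.1 CPM in SS (log2 fold change 5.86 ± 0.27, edgeR adjusted p = 1.83e-14). Both were far apart between the groups in each pair. Ccl5, an attractant of T cells, averaged 62.9 ± 7.26 CPM with IL-1b and 1.23 ± 0.462 CPM in SS (log2 fold change 5.67 ± 0.45), and Ccl8 averaged 34.1 ± 20.9 and 1.13 ± 1.09 CPM in the same order (log2 fold change 4.88 ± 0.95). The eosinophil attractant Ccl11 ranged over 1.89 to 4.38 CPM with IL-1b and 0.0868 to 0.468 CPM in SS without overlap, at an adjusted p of 0.11 in the unpaired fit and 0.00153 in the paired fit.

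**Figure D2:**
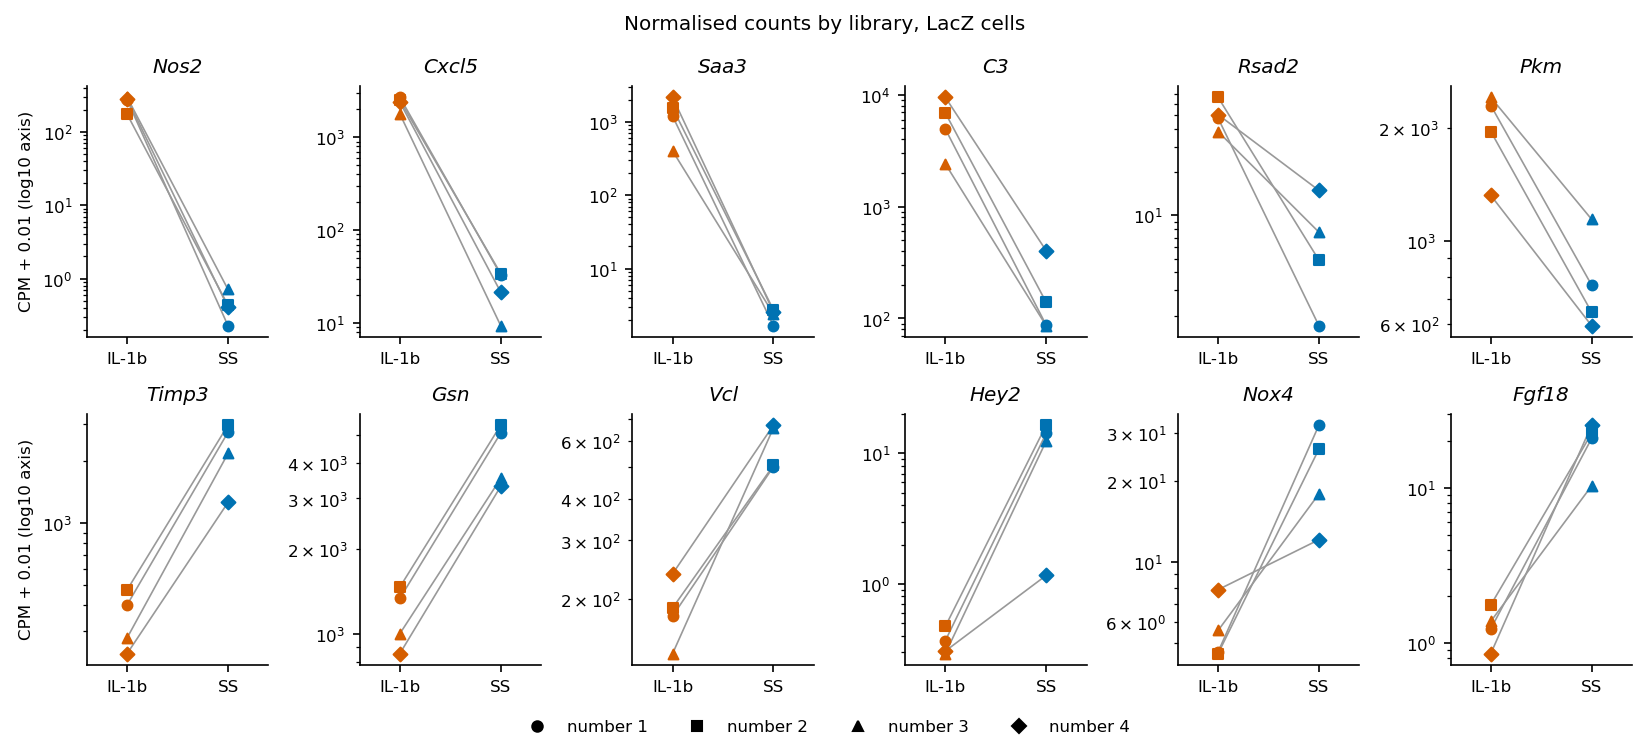
Normalised counts (CPM, log10 axis with 0.01 added) of 12 genes in the 4 IL-1b libraries (left) and the 4 SS libraries (right) of LacZ cells, with same-numbered libraries joined by a line and the number given by the marker. The 6 genes of the upper row are higher in IL-1b in all 4 pairs, and the 6 genes of the lower row are lower in all 4 pairs. These 12 genes were picked among genes called in the same libraries, so the agreement of pairs is no separate evidence.

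Cytokines of the IL-6 family were partly raised. Of 18 tested genes of the IL-6 family and other cytokines, 7 were higher and 1 lower (11 and 2 in the paired fit), with a median log2 fold change of 1.03, and the lower call was absent without IL-1b library 1, 3 or 4 or SS library 1, 2 or 3. With all libraries 44.4% of this list was called in the unpaired fit, against 19.2% of all tested genes. Il6 (chromosome 5, 30013114 to 30019981), the main inducer of the acute-phase response, had 134, 113, 140.0 and 116 CPM with IL-1b and 4.69, 2.11, 3.67 and 1.72 CPM in SS, a 41.3-fold difference (log2 5.37 ± 0.61, edgeR adjusted p = 4.05e-07). The alarmin Il33 had 58.3, 85.8, 22.1 and 73.9 CPM with IL-1b and 3.08, 3.79, 2.88 and 10.0 CPM in SS (log2 fold change 3.59 ± 0.82, edgeR adjusted p = 0.00232), and Lif, an IL-6 family member, had 51.6, 42.6, 73.3 and 47.8 CPM with IL-1b and 4.73, 4.63, 9.52 and 6.00 CPM in SS (log2 fold change 3.11 ± 0.45, edgeR adjusted p = 1.34e-05). The IL-1b values of Il6, Il33 and Lif all lay above those of SS. Il11, the family member known as a target of TGFb, averaged 1.90 ± 1.27 CPM with IL-1b and 1.23 ± 0.562 CPM in SS (edgeR adjusted p = 0.505), and Tnf averaged 1.29 ± 1.19 and 0.626 ± 0.463 CPM (adjusted p = 0.561). Transcripts of Il1a and Il1b themselves were too low to be tested.

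The colony-stimulating factors, which drive the growth of granulocytes and macrophages, differed in level. Of the 6 tested, which include the stem cell factor gene Kitl, 3 were higher and 1 lower. With a filter of at least 1 CPM in 4 libraries, or with only the groups compared, 2 were higher. Csf3, the granulocyte factor, had 232, 179, 188 and 445 reads in IL-1b libraries and 0, 0, 0 and 3 reads in SS libraries, a depth-corrected ratio of 310.1 (95% interval 106 to 1506). Csf1, the macrophage factor, was already abundant and had 2574, 2008, 2915 and 1620.0 CPM with IL-1b and 672, 590.2, 975 and 633 CPM in SS (log2 fold change 1.67 ± 0.39, edgeR adjusted p = 0.0032). Csf2 had 57 reads in all with IL-1b and 1 in SS, for a ratio of 50.8 (95% interval 8.76 to 2041). The lower gene was Flt3l at 5.53 ± 0.529 CPM with IL-1b and 10.8 ± 4.0 CPM in SS, whose adjusted p of 0.037 was 0.0584 to 0.124 without any 1 of the 4 IL-1b libraries or of SS libraries 1, 2 and 3.

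Genes of the acute phase and of antimicrobial defence had a median log2 fold change of 4.26. Of 19 tested, 17 were higher and 0 lower. Saa1, Saa2, Saa4 and S100a8 had at most 3 reads over the SS group. Such genes could pass the filter through IL-1b libraries alone, so the count and the median lean toward rises. With a filter of at least 1 CPM in 4 libraries 13 were higher, and with only the groups compared 14. The median within pairs was 4.0, 4.03, 2.83 and 3.88 for numbers 1 to 4, against 4.90, 4.47, 2.98 and 2.76 for the CXC chemokines, so that only in number 4 was it the higher of the 2. The serum amyloid gene Saa3 (chromosome 7, 46711998 to 46715700) had 1189.9, 1542, 399.7 and 2152 CPM with IL-1b and 1.65, 2.71, 2.39 and 2.55 CPM in SS (log2 fold change 9.15 ± 0.49, edgeR adjusted p = 3.9e-13). Its IL-1b level was lowest in number 3 and highest in number 4, while its SS level was even. Lcn2 (chromosome 2, 32384633 to 32388252), the siderophore-binding lipocalin 2, had 1604, 1448, 1456 and 1542 CPM with IL-1b and 1.95, 2.57, 3.38 and 9.59 CPM in SS, a 343-fold difference (log2 8.42 ± 0.73, edgeR adjusted p = 3.3e-09). Here the IL-1b values were even and the SS value of number 4 stood above the other 3.

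Several liver-type plasma proteins followed. Haptoglobin, Hp, had 178, 229, 59.6 and 316 CPM with IL-1b and 0.260, 0.936, 0.536 and 12.6 CPM in SS (log2 fold change 5.74 ± 1.36, edgeR adjusted p = 0.00347), with number 4 highest in both groups. Ceruloplasmin, Cp, averaged 739 ± 80.1 CPM with IL-1b and 99.1 ± 13.8 CPM in SS (log2 fold change 2.90 ± 0.21), and the lipopolysaccharide-binding protein gene Lbp 289 ± 175 and 17.3 ± 7.30 CPM (log2 fold change 4.06 ± 0.49). The pentraxin Ptx3 had 1024, 879, 672 and 345 CPM with IL-1b and 59.3, 44.3, 94.8 and 23.3 CPM in SS (log2 fold change 3.72 ± 0.77, edgeR adjusted p = 0.00103). Camp, the cathelicidin precursor, had 10.6, 8.16, 6.89 and 12.3 CPM with IL-1b and 0, 0.0936, 0.0824 and 0.108 CPM in SS (log2 fold change 6.95 ± 0.82, edgeR adjusted p = 6.65e-07). Saa1 and Saa2 are near-identical copies whose reads may be split in counting, and they had 43 and 74 reads with IL-1b against 1 and 0 reads in SS. For Saa2 that is at least 22-fold higher, taking 3 reads over the SS group as the floor. The receptor Tlr2 and the metalloreductase Steap4 averaged 146 ± 32 and 983 ± 343 CPM with IL-1b, against 10.5 ± 1.61 and 18.5 ± 2.28 CPM in SS.

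Complement genes of the alternative pathway were among those raised. Of 23 tested complement genes 6 were higher and 0 lower (9 and 4 in the paired fit), with a median log2 fold change of 0.09. The 6 are 26.1% of the list, against 19.2% of all tested genes. C3 (chromosome 17, 57203970 to 57228136), the central component, had 4932, 6856, 2404 and 9456 CPM with IL-1b and 87.1, 139, 86.1 and 403 CPM in SS, a 33.0-fold difference (log2 5.05 ± 0.71, edgeR adjusted p = 9.27e-06). By count per length it ranked 18th of all tested genes with IL-1b and 1204th in SS. Cfb, factor B of the alternative convertase, had 26.8, 55.4, 9.04 and 65.6 CPM with IL-1b and 0.217, 0.655, 0.206 and 3.09 CPM in SS (log2 fold change 5.20 ± 0.85, edgeR adjusted p = 7.82e-05). In C3 and Cfb number 4 was highest and number 3 lowest in each group.

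Feedback inhibitors of NF-kB were higher, and its subunits rose by smaller amounts. Of 25 tested genes of NF-kB subunits and feedback inhibitors, 17 were higher and 0 lower (22 and 0 in the paired fit), and all 25 had a fold change above 0, with a median log2 fold change of 1.40. Nfkbia (chromosome 12, 55489410 to 55492647), which encodes the inhibitor IkB-alpha and is itself an NF-kB target, had 193, 204, 143 and 186 CPM with IL-1b and 24.2, 26, 27.9 and 32.9 CPM in SS, a 6.55-fold difference (log2 2.71 ± 0.15, edgeR adjusted p = 5.78e-13). Zc3h12a, whose product regnase-1 degrades cytokine mRNAs, had 212, 194, 167 and 149 CPM with IL-1b and 10.5, 8.66, 10.6 and 9.59 CPM in SS (log2 fold change 4.20 ± 0.23, edgeR adjusted p = 5.67e-13). Tnfaip3, the ubiquitin-editing enzyme A20, had 138, 149, 72.4 and 129 CPM with IL-1b and 18.7, 16.8, 19.9 and 8.76 CPM in SS (log2 fold change 2.93 ± 0.53, edgeR adjusted p = 0.000223). These 3 negative regulators were raised in all pairs without overlap.

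The nuclear IkB proteins Nfkbiz and Bcl3, which steer the choice of target genes, averaged 175 ± 10.3 and 84.4 ± 3.71 CPM with IL-1b and 19.9 ± 6.82 and 7.76 ± 4.04 CPM in SS. Among the DNA-binding subunits the change was graded: the log2 fold change was 1.85 ± 0.14 for Relb, 1.40 ± 0.13 for Nfkb2, 0.70 ± 0.11 for Nfkb1 and 0.33 ± 0.07 for Rela (edgeR adjusted p = 1.72e-10, 1.35e-08, 6.88e-05 and 0.000875). Relb and Nfkb2 form the non-canonical arm. Rela, the main activating subunit, ranged over 101 to 118 CPM with IL-1b and 85.2 to 91.8 CPM in SS. Sod2 (chromosome 17, 13006846 to 13040063), the mitochondrial superoxide dismutase and a long-known NF-kB target, had 597, 629.5, 382 and 645 CPM with IL-1b and 44.1, 40.4, 41.6 and 37.6 CPM in SS (log2 fold change 3.78 ± 0.16, edgeR adjusted p = 3.12e-15).

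Promoters of 4 of these genes are shown because a match to the NF-kB consensus lies in each. They are RefSeq sequences of GRCm38.p6 from 250 bases before to 50 bases from the annotated start, at chr5:90890995-90891294 (plus strand), chr5:30012864-30013163 (plus), chr12:55492598-55492897 (minus) and chr17:13007589-13007888 (plus). Capitals mark the consensus, read on either strand, and overlapping matches run together.
Cxcl1: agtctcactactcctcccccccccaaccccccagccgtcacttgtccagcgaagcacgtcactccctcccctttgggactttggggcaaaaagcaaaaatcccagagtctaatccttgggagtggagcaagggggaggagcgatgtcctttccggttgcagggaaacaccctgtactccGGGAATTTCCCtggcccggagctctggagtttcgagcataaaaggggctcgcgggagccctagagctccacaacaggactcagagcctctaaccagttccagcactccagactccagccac
Il6: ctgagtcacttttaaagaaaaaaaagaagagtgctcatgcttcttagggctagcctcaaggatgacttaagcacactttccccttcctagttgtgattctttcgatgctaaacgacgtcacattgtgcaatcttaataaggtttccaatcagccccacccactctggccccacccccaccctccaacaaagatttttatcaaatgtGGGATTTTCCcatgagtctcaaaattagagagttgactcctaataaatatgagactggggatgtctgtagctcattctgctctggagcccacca
Nfkbia: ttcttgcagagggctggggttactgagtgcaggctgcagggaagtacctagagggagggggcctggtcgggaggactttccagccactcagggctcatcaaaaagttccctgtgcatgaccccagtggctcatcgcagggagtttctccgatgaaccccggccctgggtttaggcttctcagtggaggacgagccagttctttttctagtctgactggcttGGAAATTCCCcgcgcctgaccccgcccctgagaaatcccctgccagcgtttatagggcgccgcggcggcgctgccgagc
Sod2: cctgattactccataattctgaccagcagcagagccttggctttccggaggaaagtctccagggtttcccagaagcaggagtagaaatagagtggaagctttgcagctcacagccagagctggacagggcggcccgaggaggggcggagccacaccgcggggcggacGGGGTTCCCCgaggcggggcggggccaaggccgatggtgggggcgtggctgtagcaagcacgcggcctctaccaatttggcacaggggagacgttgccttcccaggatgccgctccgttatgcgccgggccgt
The NF-kB consensus was present in 9.55% of the 27025 genes with such a promoter sequence. Among genes called higher it was present in 210 of 1407 (14.93%), among genes called lower in 120 of 1004 (11.95%) and among genes not called in 1104 of 9095 (12.14%). Among genes called more than 4-fold higher it was present in 51 of 230 (22.17%), and among the 21 genes of the NF-kB list with a sequence in 10 (47.62%). A match in this window is a description and not a measured site.

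Within the IL-1 system, the receptor Il1r1 and the brakes Il1r2 and Irak3 were among the genes called higher, and 11 genes were not called. Of 16 tested genes, 5 were higher and 0 lower (9 and 0 in the paired fit), with a median log2 fold change of 0.43. The 5 are 31.2% of the list, against 19.2% of all tested genes. The signalling receptor Il1r1 had 303, 298, 225 and 269.7 CPM with IL-1b and 149, 142, 129 and 105 CPM in SS (log2 fold change 1.06 ± 0.17, edgeR adjusted p = 4.36e-05). Among the brakes, the decoy receptor Il1r2 averaged 1.61 ± 0.507 CPM with IL-1b and 0.265 ± 0.134 CPM in SS, and the inhibitory kinase-like Irak3 49.2 ± 15.8 and 24.4 ± 2.53 CPM (edgeR adjusted p = 0.000662 and 0.00296). Il18bp, a soluble trap for the related IL-18, averaged 12.9 ± 3.93 CPM with IL-1b and 1.93 ± 0.763 CPM in SS (edgeR adjusted p = 3.67e-07). The adaptor Myd88 had 50.6, 61.5, 37.3 and 62.2 CPM with IL-1b and 32.1, 36.1, 31.4 and 45.0 CPM in SS, at an adjusted p of 0.0833 in the unpaired fit and 0.00134 in the paired fit.

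Genes of the interferon response were raised as a broad group. Of 46 tested interferon-stimulated genes, 39 were higher and 0 lower, with a median log2 fold change of 1.49. The interferon gene Ifnb1 was too low to be tested. The list's median log2 difference within pairs was 2.49, 1.99, 1.30 and 0.83 for numbers 1, 2, 3 and 4. Rsad2, the antiviral enzyme viperin, had 47.4, 66.2, 38.3 and 50.2 CPM with IL-1b and 1.69, 4.87, 7.62 and 14.9 CPM in SS (log2 fold change 2.79 ± 0.59, edgeR adjusted p = 0.0013). The SS values differed more from one another than the IL-1b values, with number 4 the highest SS library and number 1 the lowest.

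Number 4 was also the highest SS library in other members. Isg15, the ubiquitin-like modifier, had 235, 273, 214 and 197 CPM with IL-1b and 30.0, 56.8, 70.7 and 111 CPM in SS (log2 fold change 1.78 ± 0.38, edgeR adjusted p = 0.0012). Irf7, the factor that amplifies interferon output, had 416, 556, 342 and 262 CPM with IL-1b and 33.6, 58.5, 57.2 and 98.3 CPM in SS (log2 fold change 2.67 ± 0.37, edgeR adjusted p = 9.73e-06). Bst2, which tethers budding virus, had 516, 621, 438 and 376 CPM with IL-1b and 83.8, 155, 118 and 223 CPM in SS (log2 fold change 1.75 ± 0.30, edgeR adjusted p = 0.00011). In all 3 genes the SS library of number 4 was the highest of its group and the groups still did not overlap. The guanylate-binding proteins Gbp2 and Gbp5 averaged 414 ± 126 and 75.1 ± 32.4 CPM with IL-1b and 57.5 ± 34.9 and 5.09 ± 1.76 CPM in SS (log2 fold change 2.85 ± 0.43 and 3.88 ± 0.45), and Zbp1, a sensor of Z-form nucleic acid, 137 ± 24.4 and 11.1 ± 13.1 CPM. Of the factors, Irf1 averaged 87.1 ± 12.3 and 32.3 ± 4.29 CPM (log2 fold change 1.43 ± 0.20, edgeR adjusted p = 7.69e-06).

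The promoters of Rsad2 (chr12:26456403-26456702, minus strand) and Bst2 (chr8:71537423-71537722, minus strand) are shown for the interferon-stimulated response element, searched as GAAANNGAAA on both strands and set in capitals.
Rsad2: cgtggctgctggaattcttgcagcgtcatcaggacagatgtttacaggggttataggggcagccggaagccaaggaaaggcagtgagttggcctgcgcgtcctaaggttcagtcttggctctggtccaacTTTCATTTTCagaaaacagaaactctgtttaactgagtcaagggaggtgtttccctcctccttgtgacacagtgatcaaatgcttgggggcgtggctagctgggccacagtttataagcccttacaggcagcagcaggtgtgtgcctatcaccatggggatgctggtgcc
Bst2: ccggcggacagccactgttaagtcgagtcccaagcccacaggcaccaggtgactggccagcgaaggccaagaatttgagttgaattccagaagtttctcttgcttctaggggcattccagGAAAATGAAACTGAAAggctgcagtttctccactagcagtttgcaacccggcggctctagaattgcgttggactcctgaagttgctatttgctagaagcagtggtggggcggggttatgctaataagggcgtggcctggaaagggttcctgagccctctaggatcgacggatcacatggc
That pattern stood in 23 of the 37 listed interferon-stimulated genes with a promoter sequence (62.16%), against 3.993% of all 27025 genes. Among genes called higher it stood in 7.889%, among genes called lower in 2.789% and among genes not called in 3.364%.

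Antigen presentation by MHC class I moved almost as a whole. Of 27 tested genes, 26 were higher and 0 lower, with a median log2 fold change of 1.50, and all 27 had a fold change above 0. The heavy chain H2-K1 (chromosome 17, 33996017 to 34000347) had 819, 1085, 560.0 and 519.9 CPM with IL-1b and 94.9, 121, 95.3 and 118 CPM in SS (log2 fold change 2.80 ± 0.27, edgeR adjusted p = 2.76e-08). The light chain B2m had 1587, 1667, 1303 and 1107 CPM with IL-1b and 634, 734, 691 and 636 CPM in SS (log2 fold change 1.07 ± 0.18, edgeR adjusted p = 9.68e-05). The immunoproteasome subunits Psmb8 and Psmb9, which replace the constitutive subunits in inflamed cells, averaged 63.7 ± 16.1 and 14.7 ± 4.13 CPM with IL-1b and 11 ± 3.10 and 4.0 ± 0.482 CPM in SS (log2 fold change 2.53 ± 0.30 and 1.88 ± 0.31). The peptide pump Tap1 averaged 116 ± 26.5 and 67.0 ± 4.27 CPM (log2 fold change 0.79 ± 0.16), and the activator of these genes, Nlrc5, 19.8 ± 5.92 and 3.52 ± 1.75 CPM (log2 fold change 2.48 ± 0.37). Heavy chains of the Q region, such as H2-Q4 at 279 ± 104 CPM with IL-1b and 15.9 ± 6.04 CPM in SS, share long stretches with each other, so their reads are uncertain between copies.

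Adhesion molecules for leukocytes moved in both directions. Of 13 tested, 6 were higher and 2 lower, with a median log2 fold change of 1.18, and 1 gene was lower without IL-1b library 1 or 2 or SS library 3 or 4. Vcam1 (chromosome 3, 116109949 to 116129688), a ligand of leukocyte integrins, had 1648, 1994, 1197 and 2160.5 CPM with IL-1b and 453, 408, 797 and 508 CPM in SS (log2 fold change 1.69 ± 0.23, edgeR adjusted p = 7.31e-06). Icam1 had 326, 417, 251 and 331 CPM with IL-1b and 59.0, 85.2, 82.0 and 94.9 CPM in SS (log2 fold change 2.04 ± 0.23, edgeR adjusted p = 3.76e-07). Selp, P-selectin, known mainly from endothelium and platelets, had 415, 419.6, 328 and 155 CPM with IL-1b and 6.73, 6.83, 17.9 and 2.98 CPM in SS (log2 fold change 5.26 ± 0.67, edgeR adjusted p = 2.56e-06). The endothelial marker sum was 616, 514, 638 and 307 CPM with IL-1b and 434, 373, 625 and 259 CPM in SS, higher with IL-1b in each pair. Gene by gene most of these markers went the other way. Of 9 tested, 0 were called higher and 1 lower, with a median log2 fold change of -0.32 and 2 above 0. The part of endothelial cells in these values was not tested. Cd44, the hyaluronan receptor, averaged 325 ± 25.0 CPM with IL-1b and 56.7 ± 20.3 CPM in SS, and Has2, which makes hyaluronan, 24.0 ± 1.15 and 3.37 ± 1.63 CPM (log2 fold change 2.52 ± 0.26 and 2.83 ± 0.35).

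Matrix proteases and their inhibitors moved in both directions. Of 17 tested matrix metalloproteinases, 6 were higher and 1 lower (10 and 5 in the paired fit), and 2 were lower without SS library 3 or 4. With all libraries 41.2% of this list was called in the unpaired fit, against 19.2% of all tested genes. Mmp3, stromelysin 1, which cleaves many matrix proteins and activates other proteases, had 4077, 4408, 3045 and 3986 CPM with IL-1b and 302, 349.8, 396 and 655 CPM in SS, a 9.11-fold difference (log2 3.19 ± 0.32, edgeR adjusted p = 4.5e-08). It stood 5th by count per length in IL-1b libraries, against 121st in SS libraries. The collagenase Mmp13 averaged 7.86 ± 4.08 CPM with IL-1b and 1.02 ± 0.353 CPM in SS (log2 fold change 2.94 ± 0.53), and the gelatinase Mmp9 4.98 ± 3.53 and 0.839 ± 0.415 CPM (log2 fold change 2.56 ± 0.67). Mmp2, the gelatinase of resting fibroblasts, had 949, 1239, 547 and 1709 CPM with IL-1b and 1331, 1680.0, 826 and 2250.4 CPM in SS. Each pair was lower with IL-1b, at an adjusted p of 0.488 in the unpaired fit and 0.00348 in the paired fit.

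Among 22 tested TIMP and ADAMTS genes, 6 were higher and 3 lower, but 3 were higher without SS library 1 or 2, and 1 was lower without SS library 2. With all libraries 40.9% of this list was called, against 19.2% of all tested genes. The protease inhibitor Timp1 had 1766, 1346, 3007 and 1534 CPM with IL-1b and 365, 251, 653 and 316 CPM in SS (log2 fold change 2.27 ± 0.45, edgeR adjusted p = 0.000642). Timp3, the inhibitor that stays bound to matrix, had 403, 476, 279 and 234 CPM with IL-1b and 2748, 2973, 2170.0 and 1258 CPM in SS (log2 fold change -2.72 ± 0.52, edgeR adjusted p = 0.000411). Timp1 and Timp3 thus changed in opposite directions in every pair.

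Transcripts of the main collagens did not pass the test, and a few minor chains were lower. Of 31 tested collagen genes, 0 were higher and 4 lower (1 and 9 in the paired fit), with a median log2 fold change of -0.23. The 4 are 12.9% of the list, against 19.2% of all tested genes. Col1a1 had 14346, 13547, 10674 and 7434 CPM with IL-1b and 11027, 11269.8, 10104 and 7341 CPM in SS, and Col3a1 30312, 33776, 16403 and 20978 CPM with IL-1b and 27450.2, 29081, 18342 and 17214 CPM in SS. In both the groups overlapped (edgeR adjusted p = 0.727 and 0.824). Among the lower chains, Col11a1 averaged 92.1 ± 21.3 CPM with IL-1b and 408 ± 159 CPM in SS (log2 fold change -2.15 ± 0.42), Col27a1 8.87 ± 6.95 and 34.5 ± 8.92 CPM (log2 fold change -1.96 ± 0.51), and Col8a2 1.39 ± 0.797 and 23.9 ± 6.27 CPM (log2 fold change -4.10 ± 0.72, edgeR adjusted p = 0.000514, 0.00765 and 0.00019). Among 20 tested collagen-processing enzymes, 4 were higher and 1 lower (9 and 3 in the paired fit), 25% of that list in the unpaired fit. None was lower without IL-1b library 1, 3 or 4 or SS library 1, 2 or 4. P4ha2, a prolyl hydroxylase subunit, had 344, 267, 219.5 and 127 CPM with IL-1b and 89.5, 72.2, 79.9 and 45.5 CPM in SS (log2 fold change 1.74 ± 0.47, edgeR adjusted p = 0.00879).

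Of 44 tested matrix glycoproteins and proteoglycans, 4 were higher and 3 lower (6 and 12 in the paired fit), with a median log2 fold change of -0.27 and 15.9% of the list called against 19.2% of all tested genes, and 5 were lower without IL-1b library 4 or SS library 3. Decorin, Dcn, a proteoglycan that coats collagen fibrils, had 3675, 3429, 3285 and 2477 CPM with IL-1b and 1064, 1183, 732 and 1193 CPM in SS (log2 fold change 1.62 ± 0.30, edgeR adjusted p = 0.000287). Tnfaip6, a hyaluronan-binding protein of inflammation, averaged 22.6 ± 3.21 CPM with IL-1b and 5.97 ± 0.922 CPM in SS (log2 fold change 1.92 ± 0.30). Asporin, Aspn, a close relative of decorin, had 26.2, 21.5, 8.79 and 64.0 CPM with IL-1b and 152, 106, 89.2 and 254 CPM in SS (log2 fold change -2.32 ± 0.59, edgeR adjusted p = 0.0064). Dcn was higher and Aspn lower with IL-1b in each pair. Postn, periostin, had 1469.7, 1156, 1305 and 301 CPM with IL-1b and 2163, 1699, 2370.4 and 805 CPM in SS, lower with IL-1b in 4 of 4 pairs but with overlapping groups (edgeR adjusted p = 0.428, 0.0505 in the paired fit and 0.0445 without number 4).

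**Figure D3:**
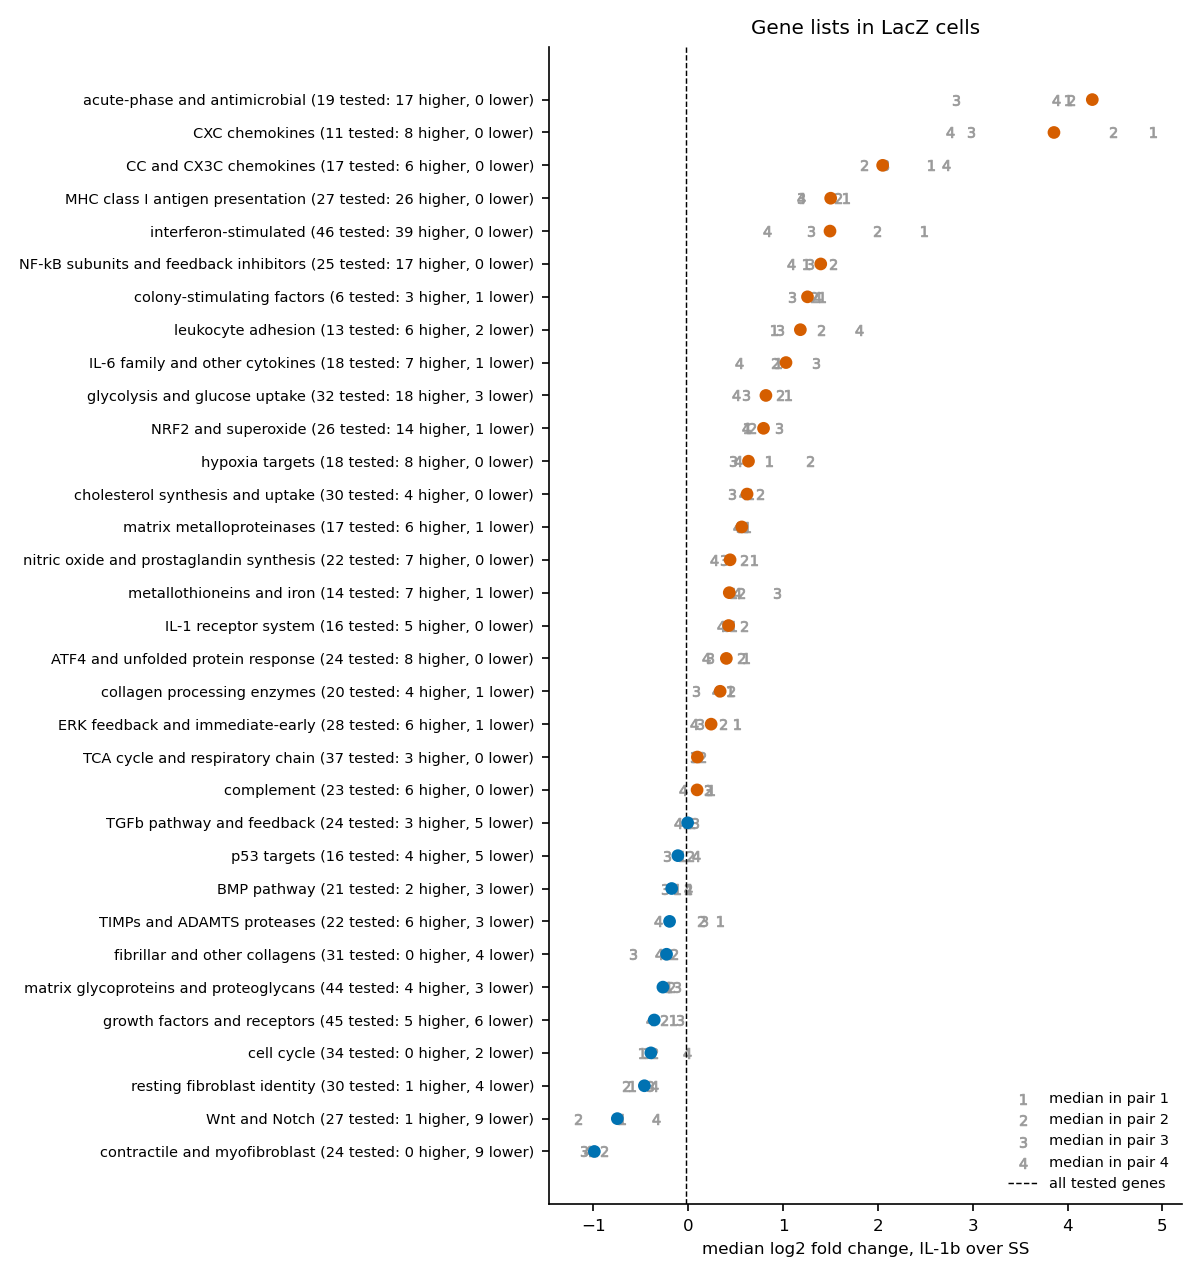
Median log2 fold change of IL-1b over SS in LacZ cells for the tested genes of 33 gene lists (filled circle), with the median within each same-numbered pair (small numbered marks) and the median over all 16760 tested genes (dashed line). Over all libraries the acute-phase list has the highest median at 4.26, although the CXC chemokine median is higher in 3 of the 4 pairs, and the contractile list the lowest at -0.99, and the pair medians of the interferon-stimulated list run from 2.49 for number 1 to 0.83 for number 4. Some tested acute-phase genes could pass the filter through IL-1b libraries alone, so that median leans toward rises.

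A minority of contractile genes passed the unpaired test and a majority passed in the paired fit, all of them lower. Of 24 tested contractile and myofibroblast genes, 0 were higher and 9 lower (0 and 17 in the paired fit), with a median log2 fold change of -0.99, and 23 of 24 had a fold change below 0. The 9 are 37.5% of the list, against 19.2% of all tested genes called and 8.13% called lower. The count of lower genes was 5 without IL-1b library 1 or 3 or SS library 2 or 4. Vcl, vinculin of focal adhesions, had 177, 188, 137 and 238 CPM with IL-1b and 501, 506, 656 and 669 CPM in SS (log2 fold change -1.66 ± 0.27, edgeR adjusted p = 8.38e-05). Myh11, smooth muscle myosin, had 1.27, 0.876, 0.492 and 0.956 CPM with IL-1b and 18.1, 18.4, 4.78 and 5.17 CPM in SS (log2 fold change -3.69 ± 1.03, edgeR adjusted p = 0.0114). The myosin light chain Myl9 averaged 27.1 ± 17.7 CPM with IL-1b and 102 ± 58.8 CPM in SS (log2 fold change -1.91 ± 0.48).

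Smooth muscle actin, the usual mark of myofibroblasts, lay close to the threshold. Acta2 had 193, 195, 101 and 275 CPM with IL-1b and 400.3, 473, 356 and 953 CPM in SS, without overlap. Its log2 fold change was -1.52 ± 0.51 (edgeR adjusted p = 0.0378), and without IL-1b library 1, 2 or 3 or SS library 2 or 4 the adjusted p was 0.0570 to 0.160. The log2 fold change stayed at -1.74 to -1.10 with any 1 library left out. The adjusted p was 0.0329 in the paired fit, 0.00178 without number 4 and 0.000723 in a paired fit of the compared groups alone. Tagln had 125, 128, 147 and 144 CPM with IL-1b and 265, 282, 307 and 439 CPM in SS (edgeR adjusted p = 0.0442, and 0.0559 to 0.120 without any 1 of the 8 libraries), and its log2 fold change was -1.34 to -1.06 in those fits, with an adjusted p of 0.0225 in the paired fit. The 9 tested mural cell markers, which share Myh11 with this list, had 0 higher and 4 lower, beside the marker sums given above. The part of other cells in these values was not tested.

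Ligands and feedback genes of TGFb changed in both directions. Of 24 tested, 3 were higher and 5 lower (6 and 6 in the paired fit, 9 and 8 without number 4), with a median log2 fold change of -0.01. The unpaired calls are 33.3% of the list, against 19.2% of all tested genes. In the paired fit 32.3% of all tested genes were called. Tgfb1 had 72.7, 61.5, 85.5 and 55.9 CPM with IL-1b and 37.0, 38.5, 44.1 and 38.6 CPM in SS (log2 fold change 0.80 ± 0.21, edgeR adjusted p = 0.00744), while Tgfb3 had 70.2, 83.2, 57.1 and 129 CPM with IL-1b and 179.5, 219, 116 and 312 CPM in SS (log2 fold change -1.28 ± 0.33, edgeR adjusted p = 0.00703). The first ligand was higher and the third lower in each pair. Fst, follistatin, which binds activins, averaged 48.8 ± 6.52 CPM with IL-1b and 155 ± 12.7 CPM in SS (log2 fold change -1.67 ± 0.30, edgeR adjusted p = 0.000257). Of 21 tested genes of the BMP branch, 2 were higher and 3 lower (6 and 8 in the paired fit). The unpaired calls are 23.8% of the list, near the 19.2% of all tested genes. The higher count was 1 without IL-1b library 1, 2 or 3 or SS library 1 or 2 and 4 without SS library 4, and the lower count was 1 without IL-1b library 4. The receptor Bmpr2 averaged 368 ± 61.5 CPM with IL-1b and 157 ± 2.62 CPM in SS (log2 fold change 1.22 ± 0.19), and the target Id4 2.03 ± 1.60 and 7.85 ± 2.78 CPM (log2 fold change -1.95 ± 0.48).

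Genes lower with IL-1b on the Wnt and Notch list included the Notch targets Hey2, Heyl and Hes1. Of 27 tested Wnt and Notch genes, 1 was higher and 9 lower, with a median log2 fold change of -0.75, and the higher call was absent without IL-1b library 1 or 3 or SS library 1, 2 or 4. With all libraries 37% of this list was called, against 19.2% of all tested genes. Hey2 (chromosome 10, 30832359 to 30842801), a repressor switched on by Notch, had 0.356, 0.461, 0.281 and 0.294 CPM with IL-1b and 14.3, 16.5, 12.4 and 1.15 CPM in SS (log2 fold change -4.98 ± 1.23, edgeR adjusted p = 0.00462). Heyl had 0.751, 1.15, 1.20 and 1.25 CPM with IL-1b and 23.1, 27.1, 25.5 and 3.30 CPM in SS (log2 fold change -4.17 ± 0.73, edgeR adjusted p = 0.000182), and Hes1 11.3, 11.5, 9.60 and 4.82 CPM with IL-1b and 53.7, 45.2, 51.0 and 13.9 CPM in SS (log2 fold change -2.14 ± 0.57, edgeR adjusted p = 0.00856). In each of the 3 genes SS numbers 1 to 3 were high and SS number 4 was much lower, and IL-1b lay below SS in all pairs.

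Among the receptors, Notch3 had 123, 124, 100 and 78.9 CPM with IL-1b and 523, 445, 447 and 115 CPM in SS, with overlap through SS number 4 (log2 fold change -1.84 ± 0.53, edgeR adjusted p = 0.0139). The ligand Jag1 had 64.8, 73.1, 38.6 and 32.4 CPM with IL-1b and 276, 249.5, 263 and 56.8 CPM in SS, at an adjusted p of 0.057 in the unpaired fit and 0.00101 in the paired fit. Of the Wnt genes, the target Axin2 had 1.27, 1.06, 0.563 and 3.05 CPM with IL-1b and 4.25, 4.68, 4.74 and 4.27 CPM in SS (log2 fold change -1.59 ± 0.41, edgeR adjusted p = 0.00696). Daam2, a formin tied to Wnt signalling, averaged 0.823 ± 0.263 CPM with IL-1b and 17.0 ± 5.83 CPM in SS (log2 fold change -4.36 ± 0.65). The promoter of Hey2 (chr10:30842734-30843033, minus strand) is shown for GTGGGAA, the core bound by the Notch effector RBPJ, which is in capitals and was searched on both strands.
Hey2: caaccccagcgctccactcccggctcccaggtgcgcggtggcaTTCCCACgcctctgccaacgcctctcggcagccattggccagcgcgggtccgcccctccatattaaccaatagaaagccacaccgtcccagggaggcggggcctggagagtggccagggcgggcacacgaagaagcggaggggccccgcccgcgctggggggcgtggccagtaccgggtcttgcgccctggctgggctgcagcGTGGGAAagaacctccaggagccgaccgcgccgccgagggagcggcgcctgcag
It was present in 7.245% of all 27025 genes with a promoter sequence, in 7.669% of the genes called lower and in 6.965% of those called higher.

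Few identity genes of resting fibroblasts passed the unpaired test, and more passed in the paired fit. Of 30 tested, 1 was higher and 4 lower (3 and 14 in the paired fit), with a median log2 fold change of -0.46. The unpaired calls are 16.7% of the list, against 19.2% of all tested genes. In the paired fit 15.6% of all tested genes were lower. Gsn, gelsolin, an actin-severing protein, had 1337, 1465, 1005 and 855 CPM with IL-1b and 5096, 5432, 3528 and 3311 CPM in SS (log2 fold change -1.90 ± 0.26, edgeR adjusted p = 6.36e-06). Ly6a, known as Sca-1, had 319.8, 392, 170.2 and 199 CPM with IL-1b and 59.6, 83.2, 62.5 and 91.0 CPM in SS (log2 fold change 1.87 ± 0.34, edgeR adjusted p = 0.00024). Ly6a is both a mark of these cells and interferon-responsive. The count of lower genes was 2 without IL-1b library 1 or 3 or SS library 1 or 2. The cardiac lineage factor Gata4 ranged over 75.9 to 129 CPM with IL-1b and 115 to 212 CPM in SS, at an adjusted p of 0.306 in the unpaired fit and 0.0166 in the paired fit.

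Of 45 tested growth factor and receptor genes, 5 were higher and 6 lower (10 and 13 in the paired fit). Together these are 24.4% of the list, near the 19.2% of all tested genes. Among the higher, the angiogenic factor Vegfa had 348, 317, 248 and 211 CPM with IL-1b and 118, 120.0, 130.2 and 78.7 CPM in SS (log2 fold change 1.33 ± 0.21, edgeR adjusted p = 4.04e-05), and its relative Pgf 44.6, 38.1, 31.0 and 28.3 CPM with IL-1b and 1.09, 1.54, 1.77 and 1.97 CPM in SS (log2 fold change 4.47 ± 0.57, edgeR adjusted p = 2.53e-06). Neither overlapped between groups. Ereg, an EGF receptor ligand, averaged 131 ± 37.2 CPM with IL-1b and 32.6 ± 10.4 CPM in SS (log2 fold change 2.0 ± 0.57). Fgf18 had 1.23, 1.75, 1.37 and 0.846 CPM with IL-1b and 20.8, 22.5, 10.3 and 25.4 CPM in SS (log2 fold change -3.93 ± 0.51, edgeR adjusted p = 3.21e-06), and the receptor Fgfr2 averaged 12.3 ± 5.44 and 46.7 ± 14.1 CPM (log2 fold change -1.93 ± 0.54). Fgf23, a hormone of phosphate balance made mainly in bone, had 80, 88, 204 and 94 reads in IL-1b libraries and 0, 0, 1 and 0 reads in SS libraries, a depth-corrected ratio of 415 (95% interval 74.2 to 16439).

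Immediate-early and ERK feedback genes were read 24 h after the start. Of 28 tested, 6 were higher and 1 lower (7 and 2 in the paired fit). The unpaired calls are 25% of the list, near the 19.2% of all tested genes. The AP-1 members Fosl1 and Junb averaged 24.0 ± 14.4 and 148 ± 21.9 CPM with IL-1b and 4.33 ± 2.72 and 38.8 ± 10.9 CPM in SS (log2 fold change 2.46 ± 0.52 and 1.93 ± 0.19), and Ier3, an NF-kB-driven survival gene, 111 ± 27.2 and 11.1 ± 1.36 CPM (log2 fold change 3.32 ± 0.33). The lower gene was the feedback inhibitor Spry1, with 53.6, 45.0, 36.9 and 22.6 CPM with IL-1b and 176, 167, 163 and 69.6 CPM in SS (log2 fold change -1.87 ± 0.46, edgeR adjusted p = 0.00458).

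Glycolysis genes were higher in the majority. Of 32 tested genes, 18 were higher and 3 lower, with a median log2 fold change of 0.82. The glucose transporter Slc2a1 had 124, 111, 128 and 88.1 CPM with IL-1b and 36.3, 37.7, 41.2 and 42.4 CPM in SS (log2 fold change 1.52 ± 0.13, edgeR adjusted p = 4.97e-09). Hexokinase 2, Hk2, which traps glucose in the cell, had 86.5, 91.9, 76.2 and 83.7 CPM with IL-1b and 10.7, 9.69, 14.9 and 23.5 CPM in SS (log2 fold change 2.52 ± 0.29, edgeR adjusted p = 6.17e-07). Pkm (chromosome 9, 59656368 to 59679375), the floxed gene, had 2290.3, 1953, 2407 and 1321 CPM with IL-1b and 762, 646, 1141 and 595 CPM in SS, a 2.54-fold difference (log2 1.34 ± 0.23, edgeR adjusted p = 0.000122). Counts per gene do not separate its 2 products, PKM1 and PKM2.

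Lactate genes were higher with them. Ldha, which turns pyruvate into lactate, had 1166, 1096, 986 and 626 CPM with IL-1b and 323, 269, 567 and 302 CPM in SS (log2 fold change 1.41 ± 0.28, edgeR adjusted p = 0.000723). The lactate carriers Slc16a1 and Slc16a3 averaged 86.9 ± 25.7 and 57.8 ± 20.0 CPM with IL-1b and 21.5 ± 3.08 and 19.1 ± 4.44 CPM in SS (log2 fold change 2.01 ± 0.19 and 1.59 ± 0.38). The lower members included Pdk4, a brake on pyruvate dehydrogenase, at 14.3 ± 3.72 CPM with IL-1b and 35.3 ± 11.3 CPM in SS, and the insulin-responsive transporter Slc2a4 at 0.297 ± 0.0917 and 1.65 ± 0.494 CPM (log2 fold change -1.30 ± 0.27 and -2.46 ± 0.61). Of 37 tested genes of the TCA cycle and respiratory chain, 3 were higher and 0 lower (6 and 1 in the paired fit), with a median log2 fold change of 0.10. The 3 are 8.11% of the list, against 19.2% of all tested genes. Pcx, pyruvate carboxylase, averaged 65.2 ± 14.1 CPM with IL-1b and 35.2 ± 2.61 CPM in SS (edgeR adjusted p = 8.43e-05). The count of higher genes was 1 without IL-1b library 3 or SS library 1 or 2, and 6 without SS library 3, and the count of lower genes was 1 without IL-1b library 4 or SS library 3.

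Among hypoxia genes, a part was higher. Of 18 tested hypoxia genes, 8 were higher and 0 lower, but 4 were higher without IL-1b library 1 or 2 or SS library 2, and 5 without SS library 1 or 4. The 8 are 44.4% of the list, against 19.2% of all tested genes. Hif1a had 563, 548, 437 and 431 CPM with IL-1b and 188, 175, 149 and 170.3 CPM in SS (log2 fold change 1.54 ± 0.14, edgeR adjusted p = 1.55e-08), and its target and prolyl hydroxylase Egln3 49.3, 33.1, 39.8 and 13.0 CPM with IL-1b and 6.12, 5.29, 10.9 and 5.35 CPM in SS (log2 fold change 2.29 ± 0.41, edgeR adjusted p = 0.00022). Of 30 tested cholesterol genes, 4 were higher and 0 lower in the unpaired fit against 17 and 0 in the paired fit, with a median log2 fold change of 0.62 and 28 of 30 values above 0. The 4 are 13.3% of the list, near the 11.1% of all tested genes called higher. In the paired fit, 17 of 30 were higher against 16.8% of all tested genes. Ch25h, which makes the immune-active 25-hydroxycholesterol, averaged 101 ± 11.2 CPM with IL-1b and 10.3 ± 2.58 CPM in SS (log2 fold change 3.28 ± 0.48, edgeR adjusted p = 1.62e-05).

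Antioxidant genes were higher in the majority. Of 26 tested NRF2 and superoxide genes, 14 were higher and 1 lower (16 and 3 in the paired fit), with a median log2 fold change of 0.79. The cystine importer Slc7a11 had 53.3, 35.2, 157 and 32.9 CPM with IL-1b and 4.60, 3.46, 11.3 and 2.98 CPM in SS (log2 fold change 3.64 ± 0.65, edgeR adjusted p = 0.000204), with number 3 highest in both groups. Heme oxygenase 1, Hmox1, averaged 319.7 ± 125 CPM with IL-1b and 127 ± 24.4 CPM in SS, and Srxn1, which repairs peroxiredoxins, 227 ± 97.1 and 55.7 ± 9.74 CPM (log2 fold change 1.33 ± 0.25 and 2.03 ± 0.24). The lower gene was the superoxide source Nox4, with 4.63, 4.56, 5.56 and 7.87 CPM with IL-1b and 32.1, 26.2, 17.8 and 12.1 CPM in SS (log2 fold change -1.96 ± 0.31, edgeR adjusted p = 5.87e-05).

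Genes that bind metals were higher in part. Of 14 tested metallothionein and iron genes, 7 were higher and 1 lower, with the lower call absent without IL-1b library 1, 2 or 4 or SS library 1, 2 or 4. Mt2 had 375, 377, 350.0 and 404 CPM with IL-1b and 15.1, 18.2, 12.3 and 70.0 CPM in SS (log2 fold change 3.70 ± 0.72, edgeR adjusted p = 0.000498), with SS number 4 above the other SS libraries. The ferritin chain Fth1 had 5899, 4994, 5838 and 4266 CPM with IL-1b and 1418, 1316, 1481 and 1634 CPM in SS (log2 fold change 1.84 ± 0.14, edgeR adjusted p = 2.97e-10), and the iron importers Slc11a2 and Slc39a14 averaged 211 ± 23.1 and 512 ± 91.0 CPM with IL-1b and 30.8 ± 7.98 and 38.0 ± 2.06 CPM in SS. Lcn2 and Hp, described above, bind siderophores and haemoglobin.

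Stress response genes were higher in part, and the count of cell cycle genes depended on the fit. Of 24 tested ATF4 and unfolded protein response genes, 8 were higher and 0 lower, with a median log2 fold change of 0.40. The 8 are 33.3% of the list, against 19.2% of all tested genes. The chaperone Hspa5 averaged 1334 ± 254 CPM with IL-1b and 803 ± 62.0 CPM in SS (log2 fold change 0.73 ± 0.18, edgeR adjusted p = 0.00517). Of 16 p53 targets, 4 were higher and 5 lower, but 2 were lower without IL-1b library 1 or 3 or SS library 1 or 2, and 3 without SS library 3 or 4. With all libraries 56.2% of this list was called, against 19.2% of all tested genes. The death receptor Fas averaged 117 ± 22.9 CPM with IL-1b and 34.7 ± 6.18 CPM in SS (log2 fold change 1.76 ± 0.24). Of 34 cell cycle genes, 0 were higher and 2 lower, with a median log2 fold change of -0.39. The 2 are 5.88% of the list, against 19.2% of all tested genes. The counts were 2 and 3 in the paired fit, and 2 and 14 in a paired fit of the compared groups alone. Without SS library 3 the count was 2 higher and 1 lower, and without IL-1b library 2 it was 1 lower. The proliferation marker Mki67 had 9.77, 10.1, 52.3 and 7.21 CPM with IL-1b and 25.9, 19.0, 79.0 and 7.18 CPM in SS, with number 3 far above the other numbers in both groups (edgeR adjusted p = 0.543).

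The remaining genes of the 15 largest changes in each direction came from several families. The cornifin Sprr2b, an epithelial envelope protein, had 34.9, 28.7, 32 and 14.8 CPM with IL-1b and 0.0434, 0.281, 0.124 and 0.108 CPM in SS (log2 fold change 7.62 ± 0.58, edgeR adjusted p = 2.98e-10), and its near-identical neighbour Sprr2e had 1472 reads with IL-1b and 3 in SS, so reads of the pair are uncertain between copies. Vnn3, a pantetheinase, had 13.6, 13.2, 7.77 and 12.8 CPM with IL-1b and 0.0434, 0.0468, 0.0412 and 0.0359 CPM in SS (log2 fold change 8.0 ± 0.49, edgeR adjusted p = 2.27e-11). The amino acid carrier Slc36a2 had 3.99, 8.66, 1.20 and 24.5 CPM with IL-1b and 0, 0, 0 and 0.215 CPM in SS (edgeR adjusted p = 8.84e-05), and the adhesion molecule Chl1 15.6, 36.5, 3.94 and 37.4 CPM with IL-1b and 0.174, 0.421, 0.124 and 0.539 CPM in SS (edgeR adjusted p = 0.000483). In Slc36a2 and Chl1 the IL-1b values spread over a wide range, with number 4 at the top and number 3 at the bottom. Serpina3f, of a multi-copy serpin cluster, averaged 26.5 ± 5.04 CPM with IL-1b and 0.278 ± 0.228 CPM in SS (log2 fold change 6.52 ± 0.60).

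Genes of striated muscle stood among the 15 deepest drops. Myh1, a skeletal myosin, had 0.0791, 0.461, 0.211 and 0.0736 CPM with IL-1b and 22.8, 26.4, 7.04 and 7.76 CPM in SS (log2 fold change -6.29 ± 1.02, edgeR adjusted p = 6.88e-05). Tnnt2, cardiac troponin T, had 3.91, 6.54, 5.35 and 2.13 CPM with IL-1b and 55.7, 87.9, 43.7 and 125 CPM in SS (log2 fold change -4.12 ± 0.67, edgeR adjusted p = 6.99e-05). Of the 13 cardiomyocyte markers, 4 were tested and Tnnt2 was called lower, and Nppa was at 0 in all 8 libraries. Their sum was 4.67 to 7.97 CPM with IL-1b and 58.0, 90.1, 44.7 and 128 CPM in SS, nearly all of it Tnnt2 in SS. The neuronal cytoskeleton gene Map2 had 5.89, 6.50, 8.51 and 2.28 CPM with IL-1b and 91.0, 69.1, 97.1 and 20.3 CPM in SS (log2 fold change -3.58 ± 0.85, edgeR adjusted p = 0.00336), and the secretogranin Scg2 averaged 1.22 ± 0.433 and 13.9 ± 9.36 CPM (log2 fold change -3.51 ± 0.82). The sialyltransferase St8sia2 averaged 0.646 ± 0.526 CPM with IL-1b and 8.56 ± 2.46 CPM in SS, and Wscd2 0.459 ± 0.183 and 10.2 ± 1.80 CPM (log2 fold change -3.70 ± 0.74 and -4.47 ± 0.60). The calls of Angptl7 and Itga8 were lost without some libraries, while the folds stayed large. Angptl7 had 0.158, 0.415, 0.281 and 2.65 CPM with IL-1b and 54.1, 58.8, 8.61 and 11.5 CPM in SS (edgeR adjusted p = 0.0293, and 0.0622 to 0.0856 without IL-1b library 1, 2 or 3 or SS library 1 or 2). Its log2 fold change was -5.22 ± 1.69, and -6.86 to -4.79 with any 1 library left out, with an adjusted p of 8.62e-05 in the paired fit and 5.77e-05 without number 4. Itga8 had 3.48, 3.46, 6.47 and 14.2 CPM with IL-1b and 59.9, 73.9, 58.4 and 249 CPM in SS (edgeR adjusted p = 0.0211, and 0.0593 to 0.0680 without IL-1b library 1, 2 or 3 or SS library 4). Its log2 fold change was -3.99 ± 1.22, and -4.62 to -3.21 with any 1 library left out, with an adjusted p of 0.000142 in the paired fit.

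The LacZ response was next set against the response of iCre cells of the same genotype, as the difference between both fold changes. Of 16760 genes, 0 passed an adjusted p of 0.05 (0% called, smallest edgeR adjusted p = 0.9999). At an unadjusted p under 0.05 there were 93 genes by edgeR and 100 by DESeq2, which also called 0. Without any difference, evenly spread p-values would put a share of about 0.05 of the 16760 genes there. Both counts lie far below that share, so these 93 and 100 genes are no sign of a leftover difference. Both tests left the replicate number out, so the spread between numbers is part of their error. Both tests were stricter than their stated level, and their 0 calls say little on whether the responses are equal. The cause was not tested. The paired fit also called 0. The LacZ and iCre fold changes come from different libraries. In iCre cells alone 1488 genes were higher (8.88%) and 1146 lower (6.84%) with IL-1b, 15.7% in all. Pkm averaged 1392 ± 349 CPM in iCre cells with IL-1b and 533 ± 177 CPM in iCre SS cells, and its log2 fold change was 1.34 ± 0.23 in LacZ cells and 1.38 ± 0.23 in iCre cells. For Nos2 the log2 fold change was 9.19 ± 0.29 in LacZ cells and 9.03 ± 0.28 in iCre cells. For Il6 it was 5.37 ± 0.61 in LacZ cells and 4.89 ± 0.59 in iCre cells, and for Hey2 -4.98 ± 1.23 in LacZ cells and -4.58 ± 1.20 in iCre cells. For Il6 the difference between the responses was 0.48 ± 0.74 in the unpaired fit, and missing the threshold does not show that responses are equal.

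**Figure D4:**
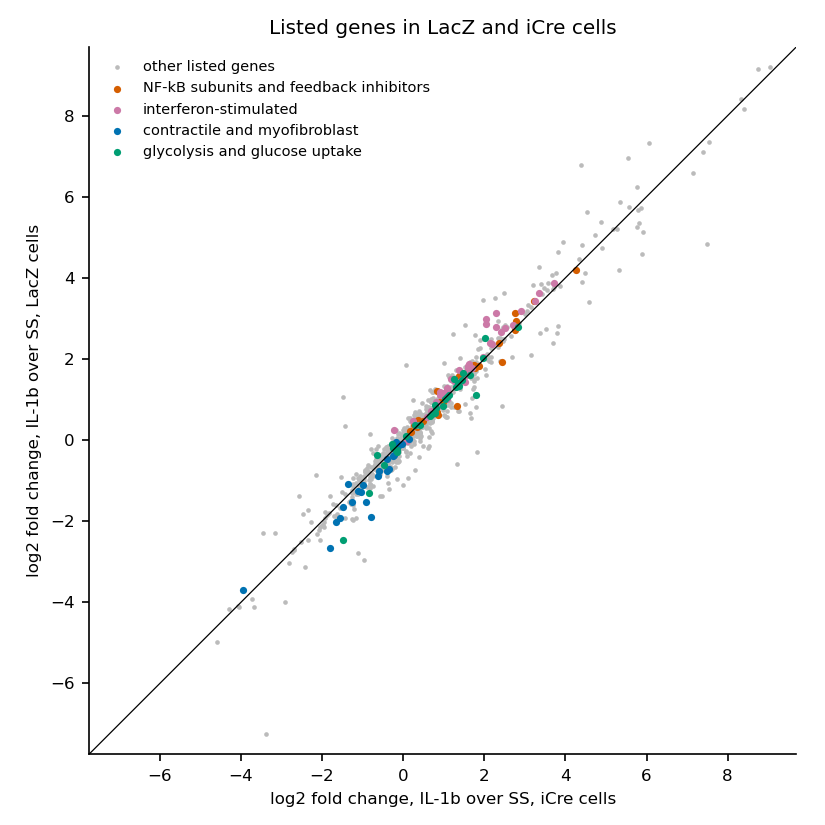
Log2 fold change of IL-1b over SS in LacZ cells (y axis) and in iCre cells (x axis) for the 842 tested genes on the lists, with the line of equality, as a description. Points of the NF-kB, interferon-stimulated, contractile and glycolysis lists are coloured, and 0 of 16760 genes passed the test of the difference between the 2 axes.

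IL-1b and TGFb set apart inflammatory and contractile genes. This comparison, like the next with bFGF, uses the same 4 IL-1b libraries as the comparison with SS. Of 16760 genes, 3096 were higher (18.5%) and 3458 lower (20.6%) with IL-1b than with TGFb, 39.1% in all. In the paired fit 4245 were higher (25.3%) and 4348 lower (25.9%), 51.3% in all. With counts scaled by library totals alone the split was 3594 higher and 2416 lower, and the median log2 fold change of all genes was 0.13 in place of 0.00. Acta2 had 193, 195, 101 and 275 CPM with IL-1b and averaged 3913 ± 1686 CPM with TGFb (log2 fold change -4.36 ± 0.58, edgeR adjusted p = 1.24e-06). Tagln averaged 136 ± 11 CPM with IL-1b and 2816 ± 573 CPM with TGFb (log2 fold change -4.37 ± 0.49, edgeR adjusted p = 1.01e-07). Mean CPM of both genes was lowest with IL-1b and highest with TGFb among the 4 LacZ groups. The bFGF library of number 4, at 80.6 CPM for Acta2 and 59.3 CPM for Tagln, lay below every IL-1b library.

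The inflammatory genes had the reverse order. Cxcl5 averaged 2343 ± 394 CPM with IL-1b and 2.95 ± 0.889 CPM with TGFb (log2 fold change 9.63 ± 0.51, edgeR adjusted p = 8.87e-14), Saa3 1321 ± 731 and 1.85 ± 0.136 CPM (log2 fold change 9.48 ± 0.50), and Cxcl1 1079.8 ± 345 and 1.76 ± 0.603 CPM (log2 fold change 9.26 ± 0.57). Among the genes with the deepest deficit against TGFb were Fgf21, at 0.153 ± 0.0827 CPM with IL-1b and 15.9 ± 2.94 CPM with TGFb (log2 fold change -6.70 ± 0.74, edgeR adjusted p = 7.41e-08), the proteoglycan Acan, at 0.119 ± 0.0529 and 44.2 ± 53.6 CPM (log2 fold change -8.50 ± 1.24, edgeR adjusted p = 5.37e-06), and the receptor Rxfp3, at 0.0360 ± 0.0416 and 8.07 ± 4.58 CPM (log2 fold change -7.55 ± 0.76). For other genes the IL-1b and TGFb groups lay close together. Hk2 averaged 84.6 ± 6.51 CPM with IL-1b and 113 ± 13.4 CPM with TGFb (log2 fold change -0.42 ± 0.28, edgeR adjusted p = 0.242, and 0.0230 in a paired fit of the compared groups alone). Timp1 ranged over 1346 to 3007 CPM with IL-1b and 1226 to 3375 CPM with TGFb.

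The difference from bFGF included Nos2 and Lcn2 on the higher side and the FGF target Spry4 on the lower side. Against bFGF, 1325 genes were higher (7.91%) and 1158 lower (6.91%) with IL-1b, 14.8% in all. In the paired fit 2237 were higher (13.3%) and 2116 lower (12.6%). With library totals alone the split was 955 higher and 1456 lower, and without IL-1b library 1 the count of lower genes was 756. Nos2 averaged 257 ± 55.9 CPM with IL-1b and 0.466 ± 0.0777 CPM with bFGF (log2 fold change 9.09 ± 0.28, edgeR adjusted p = 1.49e-18), and Lcn2 1513 ± 74.4 and 4.43 ± 4.07 CPM (log2 fold change 8.40 ± 0.72, edgeR adjusted p = 3.52e-09). The feedback inhibitor Spry4, a target of FGF signalling, averaged 19.8 ± 2.83 CPM with IL-1b and 117 ± 18.6 CPM with bFGF (log2 fold change -2.57 ± 0.39, edgeR adjusted p = 4.04e-05). Heyl averaged 1.09 ± 0.228 CPM with IL-1b and 28.5 ± 9.0 CPM with bFGF (log2 fold change -4.71 ± 0.75, edgeR adjusted p = 6.44e-05), and the potassium channel gene Kcnj5 0.0799 ± 0.0351 and 5.31 ± 3.10 CPM (log2 fold change -6.00 ± 0.72). Il1r1 averaged 274 ± 36.1 CPM with IL-1b, 44.3 ± 3.01 CPM with TGFb and 223 ± 29.5 CPM with bFGF, and differed from the TGFb group (log2 fold change 2.63 ± 0.18, edgeR adjusted p = 8.3e-12) but not detectably from the bFGF group (log2 fold change 0.29 ± 0.16, adjusted p = 0.279, and 0.0232 in the paired fit).

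**Figure D5:**
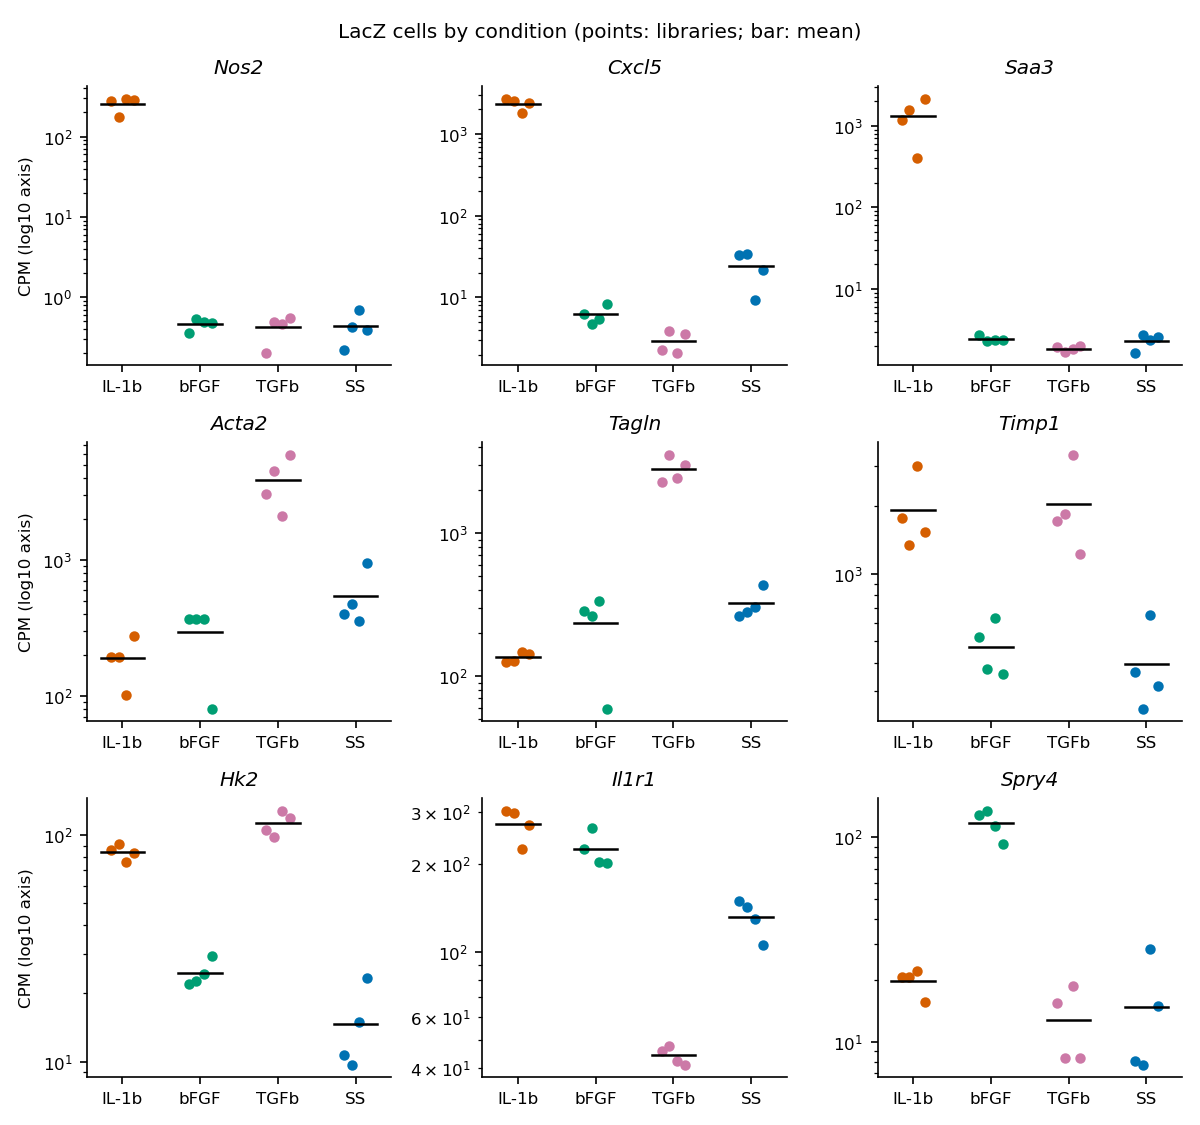
Normalised counts (CPM, log10 axis) of 9 genes in the 4 LacZ groups, with each library as a point and a bar at the group mean, in the order IL-1b, bFGF, TGFb and SS. Nos2, Cxcl5 and Saa3 stand apart in the IL-1b group, Acta2 and Tagln have their lowest mean with IL-1b and their highest with TGFb, and Timp1 overlaps between IL-1b and TGFb.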

How the data were processed

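Poly(A) RNA of 32 mouse cardiac fibroblast libraries was measured, 4 in each of 8 groups, of which 8 libraries make the comparison described. The values are raw read counts per gene deposited by the authors, 55414 Ensembl IDs with no row outside a gene. Per the submitters' processing notes, FastQC 0.10.1 and HTSeq 0.10.0 were used with mm10 and GRCm38. No aligner, strand setting or annotation release is given in the sources used here. Without a known strand setting, reads of overlapping and antisense genes cannot be told apart. Per the labels' protocols, RNA was taken with the RNeasy Micro kit and libraries were made with NEBNext Ultra II. Symbols and coordinates came from GENCODE M21 (GRCm38), which names 52133 IDs holding 99.8% of counts.

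Groups came from sample titles. Genes passing edgeR's filterByExpr (16760) were tested in R 4.3.3 with edgeR 4.0.16: TMM scaling, robust quasi-likelihood fit over all 32 libraries with one mean per group, and Benjamini-Hochberg adjustment over all tested genes at 0.05. Fold changes are edgeR's fitted values. Their SE is approximate: the absolute log2 fold change divided by the square root of the quasi-likelihood F statistic. Folds of genes with at most 3 reads in a group are given as ratios of counts with 95% intervals, which cover counting error only, with a floor of 3 reads over the group. Total counts per library were 20736203 to 29133901 in the 8 libraries.

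Same-numbered libraries deviated together: the correlations of their deviations from the group means were 0.209 to 0.808 over 20 same-numbered pairs from 5 pairs of groups, and 0.294 to 0.704 between the LacZ IL-1b and SS libraries. Every pair was over 0.1, so the numbers were taken to pair the samples, a pairing that rests on the data, and a paired fit added the number as a block. Calls without a named fit leave the number out, so the spread between numbers is part of their error. No 2 libraries of a group agreed within sampling noise (chi-square per degree of freedom at least 15.4). Alternatives were other scalings, DESeq2 1.42.0, other filters, only the groups compared, and each library left out in turn.

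Named genes are the 15 largest rises and 15 largest falls among called, non-overlapping protein-coding genes with an average log2 CPM of at least 1, members of 39 gene lists, up to 6 in each direction for other contrasts, and Pkm. Of 910 listed genes 842 were tested. The samples compared and these lists were chosen with earlier results of these data known, so lists are described by counts and medians and carry no test of their own. The analysis was tested on simulated data. Promoters are RefSeq sequences, 250 bases before to 50 from the start, matched by symbol. Results for some genes are not reported here.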

Additional observations from a re-analysis of the deposited data

Results flagged for a closer look

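Among the 4 libraries of a group, the value farthest from the rest was set against the whole range of the group for each named gene. In 35 of 320 gene and group combinations the gap passed Dixon's critical value at 95%. For normal values and independent genes, chance gives about 1 in 20. CPM need not be normal and these genes share libraries, so that share is only a rough guide. That share does not apply to Csf2, Csf3, Cxcl3, Fgf23 and Slc36a2 in SS, which had 0 reads in 3 of the 4 libraries, so that the gap fills the range by construction. IL-1b library 2 had the highest value of its group for Fgf21 at 0.276 CPM and Nlrc5 at 28.6 CPM. IL-1b library 3 had the highest value of its group for Il11 at 3.80 CPM, Mki67 at 52.3 CPM and Slc7a11 at 157 CPM. IL-1b library 3 had the lowest value of its group for Cxcl10 at 8.55 CPM, Fas at 83.2 CPM, Steap4 at 471 CPM and Vnn3 at 7.77 CPM. IL-1b library 4 had the highest value of its group for Angptl7 at 2.65 CPM, Col27a1 at 19.2 CPM, Col8a2 at 2.57 CPM and Daam2 at 1.21 CPM.

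IL-1b library 4 had the lowest value of its group for Cxcl1 at 565 CPM and Hspa5 at 953 CPM. SS library 1 had the highest value of its group for Csf2 at 0.0434 CPM. SS library 3 had the highest value of its group for Ccl2 at 41.5 CPM, Cxcl16 at 54.9 CPM, Cxcl3 at 0.0412 CPM, Egln3 at 10.9 CPM and Fgf23 at 0.0412 CPM. SS library 4 had the highest value of its group for C3 at 403 CPM, Cfb at 3.09 CPM, Csf3 at 0.108 CPM, Fst at 174 CPM, Hp at 12.6 CPM, Il33 at 10.0 CPM, Itga8 at 249 CPM, Junb at 55.2 CPM, Mt2 at 70.0 CPM, Slc36a2 at 0.215 CPM and Zbp1 at 30.5 CPM. SS library 4 had the lowest value of its group for Heyl at 3.30 CPM, Jag1 at 56.8 CPM and Spry1 at 69.6 CPM. Of the 35 values, 14 belong to SS library 4. No difference between the LacZ and iCre responses passed its test.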

How the results depend on the processing

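Counts of genes higher and lower with IL-1b against SS were 2810 and 2608 with the replicate number as a block in the fit, 3047 and 2920 with that block and only the 8 libraries compared, and 2678 and 2196 without number 4 in any group, against 1853 and 1363 as reported. Against bFGF they were 2237 and 2116 with the block, 1936 and 1898 with the block and only the groups compared, and 2015 and 1929 without number 4, against 1325 and 1158. Against TGFb the counts stayed within 1.5 times the reported ones under all alternatives. With 1 library left out in turn, the counts ranged over 1353 to 1809 higher and 907 to 1345 lower against SS, 2685 to 3053 higher and 2815 to 3351 lower against TGFb, and 1038 to 1357 higher and 756 to 1198 lower against bFGF. For the difference between LacZ and iCre responses the count was 0 under every alternative run. The pairing by number raised 8 of 172 single-gene results past the threshold and ended none. DESeq2 in place of edgeR added 2 calls and ended none of those for which it gave an adjusted p. It gave none for Itga8, so that call was not checked by DESeq2. Using no filter on low counts ended 6. Of 156 single-gene calls, 150 held in every fit with 1 library left out. These genes were picked for the text by p or fold change, so that share does not carry over to all calls. The direction changed in 2 cases, neither called as reported: with 1 library left out, the log2 fold change of Col3a1 ranged over -0.028 to 0.30 (below 0 without IL-1b library 2) and that of Mki67 over -1.87 to 0.20 (above 0 without SS library 3). The cause of these shifts was not tested. Depth limits the ratios of Csf2 and Cxcl3, which had 1 read each over the SS group.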
